A study of Drosophila melanogaster with 2 samples.

Results

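Shuttle craft (stc) is a zinc finger protein of Drosophila melanogaster related to human NFX1. The regions described here are 1494 peaks of stc chromatin immunoprecipitation and sequencing (ChIP-seq) that the larger of a pair of deposited peak lists holds and the stricter list does not. They were chosen from the 5084 peaks of the larger list on chromosomes 2L, 2R, 3L, 3R, 4 and X, as those that overlap none of the 3831 peaks of the conservative list by 1 bp or more. Chromatin was taken from whole embryos of 0 to 24 h of age with a transgenic stc-eGFP fusion, and the fusion protein was precipitated through its GFP. There was 1 group of 2 biological replicates and no comparison between conditions, and a possible control experiment named in the labels was not analysed here. Embryos of all stages and all cell types were pooled in such a sample, and the tagged protein comes from a transgene, per the labels. A signal seen in few cells and a weak signal seen in many therefore cannot be told apart.

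NFX1 was named for binding to the X box of human MHC class II promoters, and stc is known from fly genetics for a role in embryonic nerve development. ChIP-seq recovers DNA that the tagged protein contacts directly, DNA held through other proteins, and background DNA. The irreproducible discovery rate (IDR) is low for a peak that ranks high in both of the lists that are compared. Every thresholded list used here keeps peaks with an IDR of 0.01 or less. The conservative list comes from a comparison of the replicates with each other. The larger list comes from a comparison of another pair of lists, whose peaks matched those of neither replicate.

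Examples with their sequence show what the larger list adds. Each is a window of 50 bases to each side of the summit, the position of highest signal in the peak, on the plus strand of the RefSeq Release 6 assembly (dm6). Capitals mark matches to any of the 25 motifs searched, which in the zfh2 window are the Su(Hw) core TGCATA. They include the promoter peaks of highest signal held by the thresholded list of replicate 1 alone (CG32115) or replicate 2 alone (lawc and gw). Next are the strongest intron peak (ATP8B) and the strongest intergenic peak (the gene with the nearest start is zfh2). A tRNA gene peak that holds a B box and the peak at the promoter of stc itself follow.
CG32115, chr3L:12913751-12913851: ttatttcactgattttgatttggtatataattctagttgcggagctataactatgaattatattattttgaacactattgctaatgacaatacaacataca
lawc, chrX:8409947-8410047: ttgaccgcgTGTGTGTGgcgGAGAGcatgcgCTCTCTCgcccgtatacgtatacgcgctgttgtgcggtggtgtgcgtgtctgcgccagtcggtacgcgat
gw, chr4:660061-660161: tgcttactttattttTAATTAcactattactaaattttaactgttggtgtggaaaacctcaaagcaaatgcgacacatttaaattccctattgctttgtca
ATP8B, chr3R:12079106-12079206: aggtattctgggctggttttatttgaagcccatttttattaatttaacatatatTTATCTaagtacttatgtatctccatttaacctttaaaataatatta
zfh2, chr4:497873-497973: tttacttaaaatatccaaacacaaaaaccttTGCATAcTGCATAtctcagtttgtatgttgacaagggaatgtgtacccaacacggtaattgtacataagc
tRNA:Ser-AGA-2-4, chr2L:3172934-3173034: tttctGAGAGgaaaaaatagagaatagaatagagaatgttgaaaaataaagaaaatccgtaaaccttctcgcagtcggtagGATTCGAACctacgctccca
stc, chr2L:15113298-15113398: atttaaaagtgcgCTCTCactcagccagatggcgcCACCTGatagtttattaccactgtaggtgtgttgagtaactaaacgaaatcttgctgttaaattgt
The windows differ widely in base composition: GC made up 25.7% of the CG32115 window, 62.4% of the lawc window and 40.6% of the stc window.

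The larger-list-only peaks were mostly of moderate signal. Their signal value, the authors' own measure, of a scale not given in the sources used here, had a median of 75.2 and a lower and upper quartile of 66.6 and 86.3, with a lowest value of 2.11 and a highest of 430.5. Conservative peaks had a median of 126.2 and quartiles of 94.2 and 199.4, with a highest value of 1950.8. Of the larger-list-only peaks, 1486 were 350 bp wide. Of the 1494, 210 overlapped another peak of the larger list. These values belong to the choice of the peaks and are given as a description. The files hold no read depth, which is therefore unknown.

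Of the 1494 peaks, 1425 stood with the same start and end in the list that ranks peaks between the replicates, where they had missed the threshold. There, 401 had an IDR of up to 0.02, 468 lay above that and up to 0.1, and 556 lay above 0.1, with a median of 0.0489 and a highest IDR of 0.853 in the authors' deposited table. The other 69 were not in that ranked list at all. At the edge, the 50 peaks with the lowest IDR between the replicates had a median signal of 80.5, and the 50 conservative peaks with the highest IDR had a median of 75.8. At the other edge, the 50 larger-list-only peaks nearest the threshold of the larger list had a median signal of 66.9, and the 50 ranked peaks just beyond it 66.3. The 50 peaks with the lowest IDR between the replicates also had to pass the threshold of the larger list, and the 50 conservative peaks did not. The IDR entered the choice of the peaks, so these medians are only a description.

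The replicates seldom both held one of these peaks. Thresholded lists of the replicates overlapped as follows: replicate 2 alone held 564 (37.8%, exact 95% confidence interval 35.3 to 40.3), replicate 1 alone 191 (12.8%, 11.1 to 14.6), both 12 (0.803%) and neither 727 (48.7%, 46.1 to 51.2). Of the conservative peaks, both replicates held 2119 (55.3%), replicate 2 alone 746, replicate 1 alone 367 and neither 599. Since the replicates entered the choice of the peaks, these shares were not tested.

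In the ranked lists, which also hold peaks that missed the threshold, the larger-list-only peaks had a median signal of 27.6 in replicate 1 and 44.1 in replicate 2. Conservative peaks had medians of 59.5 in replicate 1 and 70.7 in replicate 2. Where both replicates had a ranked peak, replicate 2 was the higher in 937 of 1353 larger-list-only peaks (69.2%) and in 2600 of 3806 conservative peaks (68.3%). Peaks held by replicate 2 alone had a median of 22.7 in replicate 1 and 61.8 in replicate 2. Peaks held by replicate 1 alone had 55.0 in replicate 1 and 28.8 in replicate 2. In the 1353 larger-list-only peaks ranked in both replicates, the signal in the larger list was close to the sum of the replicates' signals. The median ratio was 1.00 (quartiles 0.939 and 1.07). It was not taken for the 141 without a ranked peak in 1 or both, where a missing ranked peak is not a measured absence of signal. No ranked peak of replicate 1 lay at 91 of the 1494 and none of replicate 2 at 51.

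**Figure D1:**
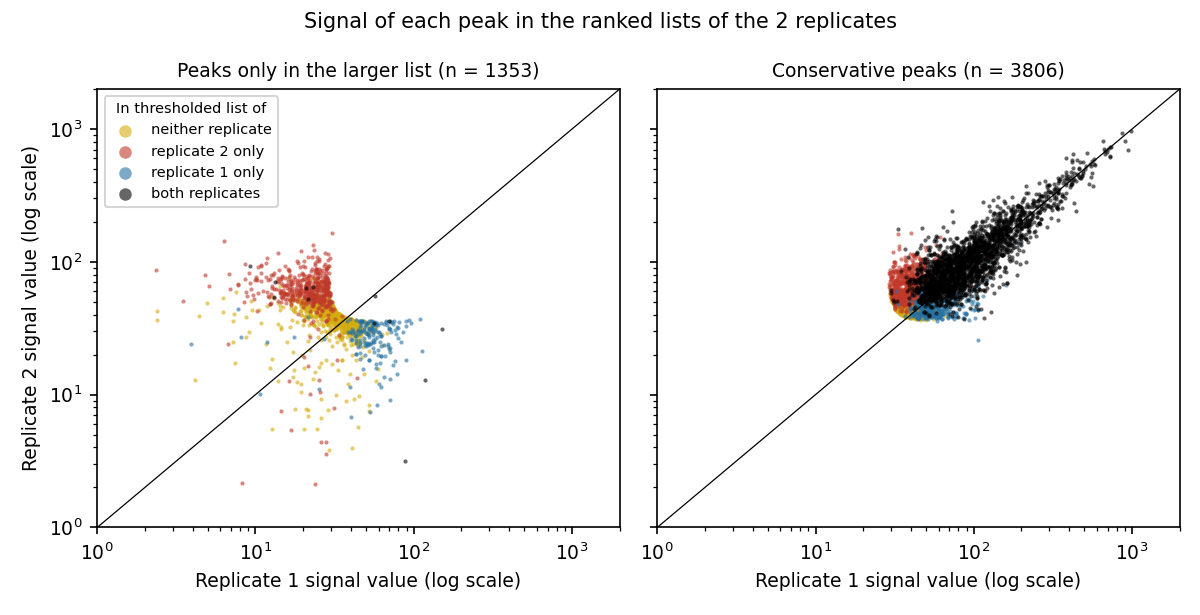
Signal value of each peak in the ranked list of replicate 1 (horizontal, log scale) and of replicate 2 (vertical, log scale), for 1353 larger-list-only peaks (left) and 3806 conservative peaks (right) that have a ranked peak in both; colours give the thresholded list that holds the peak, and the line marks equal signal. Conservative peaks lie along the line, while larger-list-only peaks form an arc. Those that 1 replicate's list holds are low in the other, most often replicate 1. Those in neither list, 685 of the peaks plotted, have closer signals, with medians of 29.4 in replicate 1 and 37.95 in replicate 2.

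Many of the strongest of these peaks lacked a ranked peak in 1 of the replicates. A strong peak is in this set only if it missed the conservative list, so this follows in part from the choice. Of the 20 with the highest signal, all at 142.7 or more, 10 had no ranked peak in 1 of the replicates. The highest, in Cals, the gene of the synaptic cadherin calsyntenin, had a signal of 430.5. It spanned 1113227 to 1113439 on chromosome 4, with a signal of 223.9 in replicate 2 and no ranked peak in replicate 1. The strongest promoter peak, 155 bp upstream of CG32115, had a signal of 356.9, with 207.3 in replicate 1 and no ranked peak in replicate 2.

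Promoter peaks, those with a summit at most 250 bp from a transcription start site (TSS), made up 556 of the 1494 larger-list-only peaks (37.2%, exact 95% confidence interval 34.8 to 39.7) and 1269 of the 3831 conservative peaks (33.1%, 31.6 to 34.6). By Fisher's exact test (two-sided) the odds ratio was 1.20, with a 95% confidence interval of 1.06 to 1.36 and an adjusted p = 0.00724 over 7 location classes. Coding exons held 45 larger-list-only peaks (3.01%) and 29 conservative peaks (0.757%), an odds ratio of 4.07 (2.54 to 6.52, exact test, adjusted p = 2.73e-08). Summits in 5' UTRs outside the promoter window (2.01% against 0.966%, adjusted p = 0.00724) and in 3' UTRs (2.07% against 1.02%, adjusted p = 0.00724) were by the same exact test also more frequent. Introns were the less frequent class, with 584 larger-list-only peaks (39.1%) and 1747 conservative peaks (45.6%), an odds ratio of 0.766 (0.678 to 0.865, exact test, adjusted p = 5.84e-05). Intergenic shares did not differ past the threshold, at 15.7% and 17.3% (odds ratio 0.887, 0.754 to 1.04, exact test, adjusted p = 0.180). These tests count peaks, which are not independent embryos, and their p values say nothing of the spread between the replicates.

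The promoter difference passed the test among peaks of the replicate 2 list and not among those of replicate 1, and the gap between these values was not tested. Among peaks that the thresholded list of replicate 2 holds, promoters were the location of 576 larger-list-only peaks more often than of conservative ones, with an odds ratio of 1.66 (Fisher's exact test, adjusted p = 3.57e-07). Among the 203 larger-list-only peaks that the list of replicate 1 holds, the odds ratio was 0.942 (0.695 to 1.28, exact test, adjusted p = 0.848). With a TSS distance of 500 bp it was 1.08 (exact test, adjusted p = 0.340), and with 1 peak kept per run of close peaks 1.04 (adjusted p = 0.746). The intron odds ratio was 0.960 without replicate 2 (exact test, adjusted p = 0.848) and 0.856 with 1 peak per run (adjusted p = 0.0673). Of the 45 coding exon peaks, 39 stood in neither replicate's thresholded list. Their odds ratio was 1.71 within 5 strata of signal and no longer passed the test (Mantel-Haenszel test, n = 1494, adjusted p = 0.0672). Among peaks of the replicate 2 list it was 0.620 (exact test, adjusted p = 0.880), and among those of the replicate 1 list 6.23 (adjusted p = 0.0674). The calls of both UTR classes were also lost within strata of signal (odds ratios 1.95 for 5' UTRs and 1.95 for 3' UTRs), with 1 peak per run (2.10 and 1.57) and in the lists of replicate 2 (2.24 and 2.01) and replicate 1 (0.237 and 1.07). That of 3' UTRs was also lost at an IDR of 0.005 or less (1.41, 1227 peaks of the larger list, exact test, adjusted p = 0.380).

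**Figure D2:**
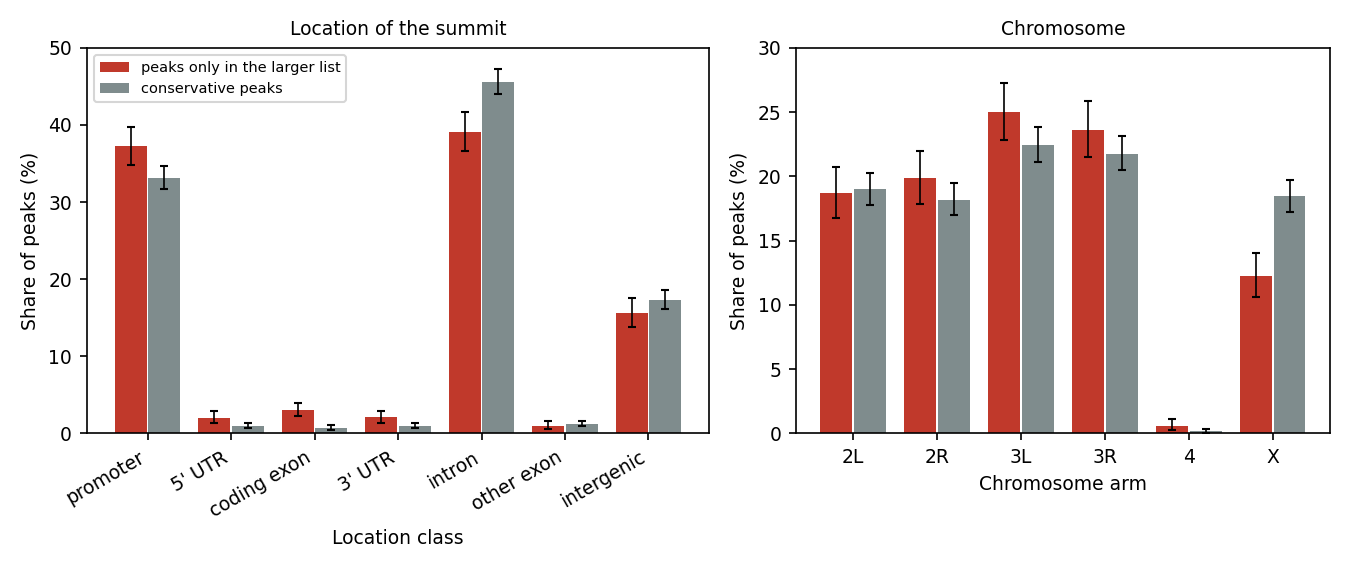
Share of larger-list-only peaks (red, n = 1494) and conservative peaks (grey, n = 3831) in each location class (left) and on each chromosome arm (right); error bars are exact 95% confidence intervals. Coding exons and chromosome 4 are more frequent among larger-list-only peaks, and introns and the X chromosome less so.

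The X chromosome was under-represented over all peaks. It held 183 larger-list-only peaks (12.2%, 10.6 to 14.02) and 707 conservative peaks (18.5%, 17.2 to 19.7), an odds ratio of 0.617 (0.518 to 0.735, exact test, adjusted p = 1.52e-07 over 6 chromosomes). The odds ratio was 0.708 within 5 strata of signal (Mantel-Haenszel test, n = 1494, adjusted p = 0.00634). Among peaks of the replicate 2 list it was 0.509 (exact test, adjusted p = 6.04e-06). Among peaks of the replicate 1 list it was 0.689, without passing the test (0.462 to 1.03, exact test, adjusted p = 0.201). Ranked peaks in neither list lay on X in 19.6% of 113895 cases. The sex of the embryos is not given in the labels.

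Chromosome 4, the small and largely heterochromatic autosome, held 9 larger-list-only peaks and 6 conservative peaks (odds ratio 3.86, 1.37 to 10.9, exact test, adjusted p = 0.0498). This call was lost in 5 of the alternatives, among them 1 peak per run (odds ratio 2.44, exact test, adjusted p = 0.269) and peaks of the replicate 1 list (1.11, adjusted p = 1). Within strata of signal the odds ratio was 10.4 (Mantel-Haenszel test, n = 1494, adjusted p = 1.10e-05). The 9 peaks were named after their values were seen. Of them, 6 were in the list of replicate 2 alone and 3 in neither. Besides the peak in Cals they included one 128 bp upstream of gw, the gene of the GW182 protein of microRNA silencing, with a signal of 197.9, of 106.9 in replicate 2 and no ranked peak in replicate 1. A peak 3887 bp upstream of zfh2, a zinc finger and homeodomain gene, had a signal of 234.2, with 156.1 in replicate 2 and no ranked peak in replicate 1. RpS3A, a ribosomal protein gene, had one 16 bp upstream of its TSS with a signal of 98.1, with 76.5 in replicate 2 and none in replicate 1.

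At promoters the summits of the larger-list-only peaks lay closer to the TSS and more often inside the gene. The summit was upstream of the nearest TSS in 319 of 556 larger-list-only promoter peaks (57.4%, 53.1 to 61.5) and in 957 of 1269 conservative ones (75.4%, 72.9 to 77.8). The odds ratio was 0.439 (0.355 to 0.542, exact test, p = 3.19e-14), a comparison chosen after the data were seen. The median position was -30.5 bp (quartiles -116 and 63.5) in larger-list-only peaks and -94 bp (quartiles -150 and -2) in conservative peaks. Position went with signal: within 5 strata of signal the odds ratio was 0.876 and did not pass the test (0.680 to 1.13, Mantel-Haenszel test, n = 556, p = 0.305). Among promoter peaks of the replicate 1 list it was 1.60 (exact test, p = 0.314), and among those of the replicate 2 list 0.346 (p = 6.26e-13).

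**Figure D3:**
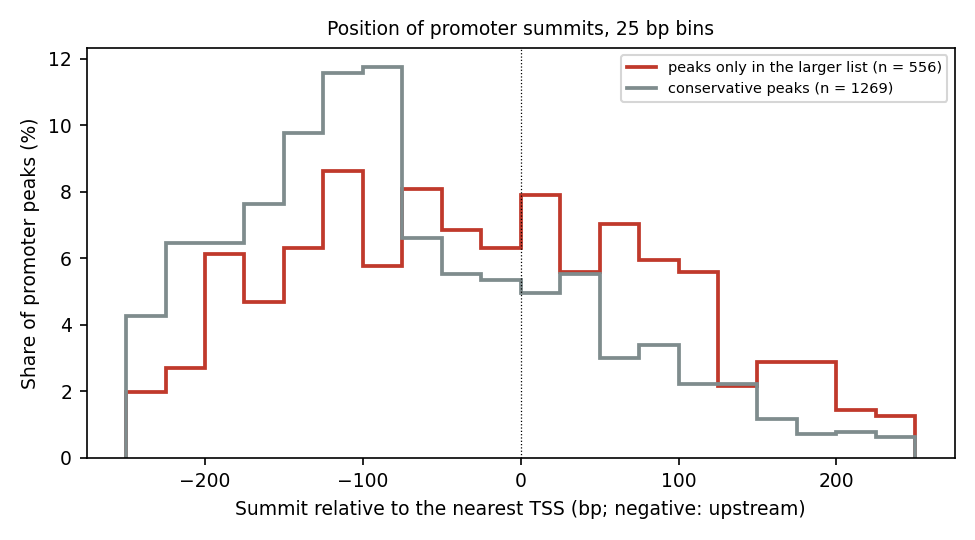
Position of the summit relative to the nearest TSS (horizontal, bp, negative values upstream) for 556 larger-list-only (red) and 1269 conservative (grey) promoter peaks, as the share of promoter peaks (%) in bins of 25 bp. Conservative summits gather upstream, with a median of -94 bp, and larger-list-only summits spread across the TSS, with a median of -30.5 bp.

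Head-to-head promoters, where a gene of the opposite strand starts within 500 bp upstream, made up 152 of the 556 larger-list-only promoter peaks (27.3%) and 430 of the 1269 conservative ones (33.9%). The odds ratio was 0.734 (0.589 to 0.915, exact test, p = 0.00633). It was 0.963 within strata of signal (Mantel-Haenszel test, n = 556, p = 0.791). It was 0.855 with a TSS distance of 500 bp (exact test, p = 0.145) and 1.18 among peaks of the replicate 1 list (p = 0.520). The nearest TSS was that of a protein-coding gene in 504 of the 556 promoter peaks, of a long or other non-coding RNA in 31, of a tRNA in 16 and of a small nuclear RNA in 3. In introns, 400 of 584 larger-list-only peaks (68.5%) and 1223 of 1747 conservative peaks (70.0%) lay in a first intron. The nearest conservative summit was at a median distance of 6402 bp from a larger-list-only summit, and 188 of the 1494 (12.6%) had one within 1 kb.

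Base composition differed between the sets. The window printed above, of 50 bases to each side of the summit, had a median GC content of 41.1% (quartiles 31.9 and 49.5) in larger-list-only peaks and of 31.7% (26.7 and 39.6) in conservative peaks, a difference of medians of 9.41 percentage points (permutation test of 100000 draws, two-sided, p = 1e-05, the smallest they can give). The surroundings differed less: windows 300 bp to each side had medians of 41.6% and 43.6%. Conservative peaks thus had a dip in GC content at the summit, with a median of -11.9 points against their own flanks, where larger-list-only peaks had 0.248 points. The summit was lower in GC than its flanks in 739 of 1494 larger-list-only peaks (49.5%) and in 2926 of 3831 conservative peaks (76.4%). The difference between the sets in this dip was 12.1 points (permutation test, p = 1e-05), a comparison added after the data were seen. Within 5 strata of signal, each counted equally, it was 6.53 points (permutation within strata, p = 5.00e-04, the smallest they can give).

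The dip was present in some of the larger-list-only peaks and not in others. Peaks held by replicate 1 alone had a median GC content of 33.7% at the summit and 44.1% in the flanks, while those held by replicate 2 alone had 43.6% at the summit and 39.1% in the flanks. Those held by neither had 41.6% and 42.1%. Limited to peaks of the replicate 1 list, larger-list-only summits had a median of 32.7% and conservative ones 30.7%, a difference of 1.98 points that did not pass the test (permutation p = 0.0503). Limited to peaks of the replicate 2 list the medians were 43.6% and 30.7%, a difference of 12.9 points (permutation p = 1e-05). The ranked peaks in neither list had a median of 46.5%, and 42.1% of the bases of the main chromosomes are G or C.

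GC content also went with signal. In the lowest of 5 equal strata of signal, up to 74.8, the medians were 42.6% in 731 larger-list-only peaks and 43.1% in 334 conservative peaks. In the second, up to 92.1, they were 39.6% and 35.6%, and in the third, up to 119.0, 38.6% and 32.7%. The mean difference over the strata was 3.56 points (permutation within strata, p = 9.99e-04). The difference was present at promoters (44.6% against 32.7%, permutation p = 1e-05) and elsewhere (39.6% against 31.7%, permutation p = 1e-05).

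**Figure D4:**
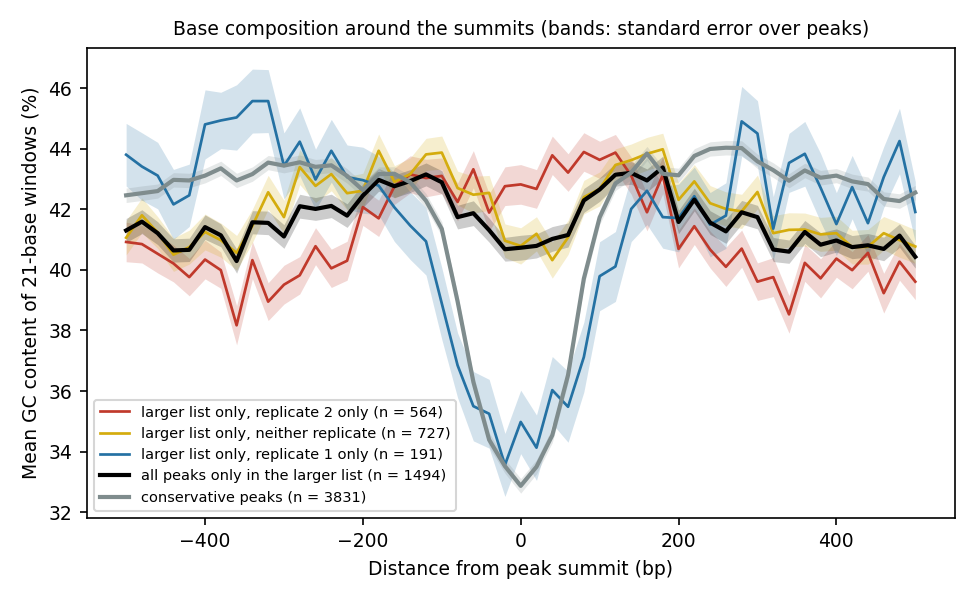
Mean GC content (%) of windows of 21 bases against distance from the summit (bp), for larger-list-only peaks split by the replicate lists that hold them (colours), for all 1494 of them (black) and for 3831 conservative peaks (grey); bands show the standard error over peaks. At the summit the mean was 34.98% in peaks of replicate 1 alone, 42.82% in peaks of replicate 2 alone and 32.87% in conservative peaks.

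Motif shares at the summit differed between the sets over all peaks, and none did past the threshold between peaks of like GC content. Of 25 motifs searched within 50 bp on both strands, 6 were more frequent and 3 less frequent in larger-list-only peaks than in conservative peaks (Fisher's exact test, adjusted over the 25). The GAGA element (GAGAG, bound by the GAGA factor Trl) stood in 251 larger-list-only peaks (16.8%) and 395 conservative peaks (10.3%), an odds ratio of 1.76 (1.48 to 2.08, exact test, adjusted p = 2.95e-09). It stood in 12.4% of ranked peaks in neither list. The E boxes CAGCTG (6.22% against 2.77%) and CAGGTG (3.95% against 1.88%), sites of basic helix-loop-helix proteins, were also more frequent, with adjusted p values of 9.58e-08 and 1.03e-04.

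CA repeats (CACACACA) had the highest odds ratio of those that passed, at 3.13 (3.81% against 1.25%, exact test, adjusted p = 9.58e-08). The GC box GGGCGG (3.68% against 2.06%) and GTTGCC, the core of another X box, (6.29% against 3.58%), passed as well. The X1 box CCTAGCAA, from the human promoters for which NFX1 is named, stood in 6 larger-list-only peaks and 4 conservative peaks and did not pass (odds ratio 3.86, 1.09 to 13.7, exact test, adjusted p = 0.0782). The TATA box TATAAA (14.7% against 22.7%, exact test, adjusted p = 8.25e-10), the homeodomain core TAATTA (6.83% against 10.7%) and the GATA site AGATAA (5.69% against 8.01%) were less frequent in larger-list-only peaks. Within 5 strata of GC content none of the 25 passed the Mantel-Haenszel test after adjustment, and 3 did at an unadjusted p under 0.05. The GAGA odds ratio was then 1.18 (n = 1494, adjusted p = 0.462) and that of CA repeats 1.77 (1.18 to 2.64, adjusted p = 0.119). Within 5 strata of signal, CAGCTG (1.88) and CA repeats (1.89) passed, and among peaks of the replicate 1 list 1 motif did.

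**Figure D5:**
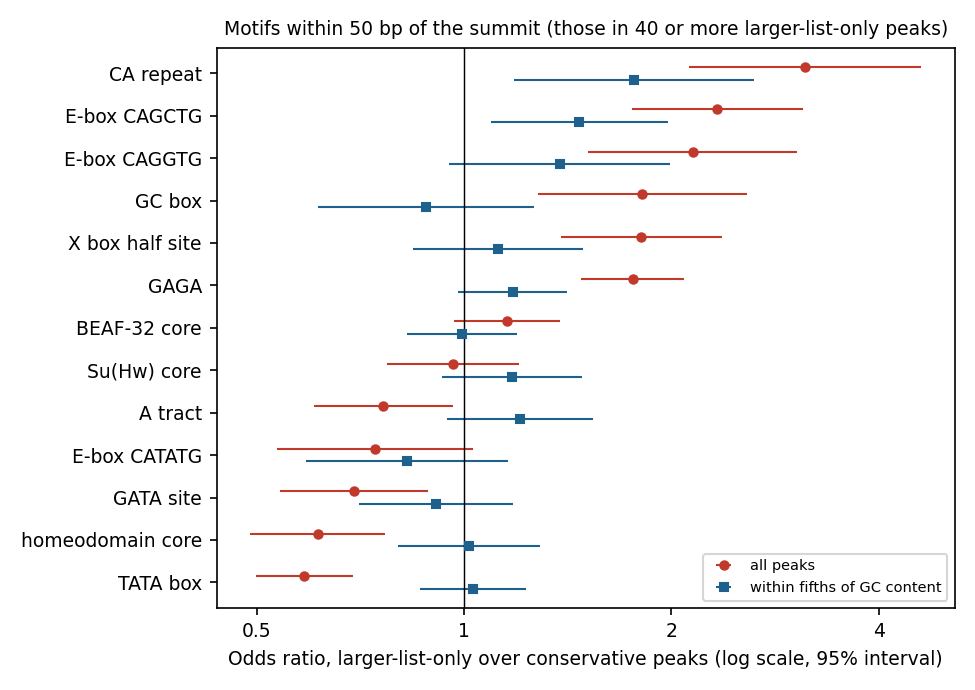
Odds ratio (log scale, with its 95% interval) of larger-list-only over conservative peaks for each motif found within 50 bp of the summit in 40 or more larger-list-only peaks; circles are all peaks and squares the Mantel-Haenszel value within 5 strata of GC content. The circles spread from the TATA box at 0.587 to CA repeats at 3.13, and the squares lie closer to 1 for all motifs shown but the Su(Hw) core (0.965 as a circle and 1.17 as a square).

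Of 13945 protein-coding genes, 536 had a summit of these peaks at a TSS, 250 bp away at most (3.84%), and 1429 had one of the conservative peaks (10.2%). Over all annotated genes without transposable elements, the shares were 3.33% and 8.46% of 18164. Of the 536 genes, 35 also had a conservative peak at a TSS. This count is limited by the choice of peaks that overlap no conservative peak. The gene counts that follow are descriptions to be read against these shares, and no list was tested.

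Among the 15 strongest promoter peaks, replicate 1 alone held those at CG32115, MYPT-75D, Ac78C, Afg3l2, ThrRS and CG15141. MYPT-75D, a targeting subunit of myosin phosphatase, had a signal of 239.6, with 137.4 in replicate 1 and no ranked peak in replicate 2. ThrRS, the threonyl-tRNA synthetase gene, had 135.9, with 93.6 in replicate 1 and 36.4 in replicate 2, and an IDR between the replicates of 0.0103 in the authors' deposited table, just past the threshold. Ac78C encodes an adenylyl cyclase and Afg3l2 a mitochondrial protease subunit. These 6 summits all lay upstream of the TSS, by 103 to 221 bp.

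Replicate 2 alone held the peaks at lawc, gw, Klc, emc, jvl, scyl and CG32486. The peak at emc, the inhibitor of basic helix-loop-helix proteins extramacrochaetae, spanned 749221 to 749570 on 3L with the summit 4 bp 5' of the TSS. It had a signal of 150.6, with 28.6 in replicate 1 and 113.9 in replicate 2. At scyl, a negative regulator of TOR signalling, it was 146.4, with 13.9 in replicate 1 and 115.6 in replicate 2. At Klc, the kinesin light chain gene, it was 195.1, with 109.8 in replicate 2 and no ranked peak in replicate 1. The peak at lawc, which lies within the transcribed region of Trf2, had a signal of 205.9, with 30.5 in replicate 1 and 165.3 in replicate 2. Both replicates' lists held the peak at Dh31-R, a neuropeptide receptor gene, with a signal of 231.7, of 151.0 in replicate 1 and 31.3 in replicate 2. The remaining one of the 15 lay at the non-coding RNA gene lncRNA:CR45588, and the nearest protein-coding TSS, that of corto, was 32903 bp away.

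The strongest intron peak, in the flippase gene ATP8B, had a signal of 181.9, with 71.4 in replicate 1 and no ranked peak in replicate 2. The intron peak of the ecdysone-induced nuclear receptor gene Eip75B, at 18029612 to 18029961 on 3L, had 144.7, with 23.3 in replicate 1 and 123.6 in replicate 2. That of Piezo, a mechanosensitive channel gene, had 142.7, with 19.5 in replicate 1 and 120.1 in replicate 2. That of mAChR-A, a muscarinic acetylcholine receptor gene, had 145.5, with 108.7 in replicate 1 and 36.8 in replicate 2. The others of the 8 strongest lay in tn, CG31323, CG6333 and CG13917. Of the 8 intron peaks, 4 were in the list of replicate 1 alone, 3 in that of replicate 2 alone and 1 in both. Strong intergenic peaks had the TSS of zfh2, CG11349, CG6602 or shg (E-cadherin) as the nearest protein-coding one.

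tRNA genes, the largest list, had the highest number of genes with a larger-list-only peak, though not the highest share. RNA polymerase III transcribes them from internal promoter boxes, the A and B boxes. Summits stood within 250 bp of the TSS of 24 of 290 tRNA genes (8.28%) in larger-list-only peaks and of 11 (3.79%) in conservative peaks. In the replicates' own thresholded lists, 41 tRNA genes had one in replicate 2 and 2 in replicate 1. The 17 larger-list-only peaks near tRNA genes had signals from 19.5 to 114.8 with a median of 79.5. In replicate 2 they ran from 10.2 to 94.2 with a median of 60.0, and 15 of the 17 were in its thresholded list. In replicate 1 none was, 8 had no ranked peak, and the others ran from 8.73 to 27.1. The strongest lay between tRNA:Arg-ACG-1-4 and tRNA:Lys-CTT-1-5 on 2R, with 83.6 in replicate 2 and no ranked peak in replicate 1. At tRNA:Ser-AGA-2-4, whose B box stands in capitals near the end of the sequence above, the signal was 10.9 in replicate 1 and 94.2 in replicate 2. At tRNA:Ala-AGC-2-1 it was 25.7 in replicate 1 and 79.8 in replicate 2. Small nuclear RNA genes had 2 larger-list-only peaks of like kind, at snRNA:U2:34ABb (28.7 in replicate 1 and 72.9 in replicate 2) and snRNA:U4:39B (28.4 and 76.1), and small nucleolar RNA genes 3 of 253.

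At genes for the protein synthesis machinery, larger-list-only peaks were fewer than conservative ones, as over all protein-coding genes (3.84% against 10.2%). Larger-list-only peaks lay at 5 of 92 cytoplasmic ribosomal protein genes (5.43%) and conservative peaks at 56 (60.9%). Among them were RpS3A, RpS5a, RpS9 and RpS3, which had no conservative peak at a TSS. RpS5a, held by replicate 1, had 62.1 there and 11.5 in replicate 2, and those at RpS3A, RpS9 and RpS3 were held by replicate 2 alone. Mitochondrial ribosomal protein genes had larger-list-only peaks at 3 of 73 (4.11%) and conservative peaks at 10 (13.7%), near the shares of all protein-coding genes. Translation factor genes had them at 6 of 48 (12.5%) and 9 (18.8%), with the strongest at eIF3c (117.3; 80.0 in replicate 1 and 31.7 in replicate 2) and eIF3a (114.7; 26.6 in replicate 1 and 71.7 in replicate 2).

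Genes of neural wiring and of embryonic signalling supplied further peaks, most of them from replicate 2. Of all 556 larger-list-only promoter peaks, the list of replicate 2 alone held 261, that of replicate 1 alone 64 and neither 228. Of 50 axon guidance genes, 6 had larger-list-only peaks (12%) and 13 had conservative ones (26%). The peaks at drl, a Ryk receptor for Wnt, at comm, which controls the sorting of Robo, and at robo2, a Slit receptor, had signals of 110.4, 105.5 and 102.9. They had 91.4, 97.9 and 79.0 in replicate 2, and 10.3, 11.7 and 4.83 in replicate 1. The summits lay 6 to 67 bp downstream of the TSS. Those of Abl, a kinase acting downstream of guidance receptors, and stan, a cadherin of the Flamingo type, were also in the list of replicate 2 alone. In the Notch list 3 of 21 genes had larger-list-only peaks. They were mam, the coactivator mastermind, kuz, the protease that cleaves Notch, and neur, the ubiquitin ligase of Notch ligands. At mam and kuz the signals were 68.7 and 63.0 in replicate 2 and 18.2 and 21.1 in replicate 1, and at neur they were 35.5 in replicate 2 and 45.9 in replicate 1.

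Ecdysone response genes had larger-list-only peaks at 4 of 21, Hr38, Kr-h1, Eip78C and Eip63E, and conservative peaks at 3. Segmentation genes had them at ptc, the Hedgehog receptor, and opa, a pair-rule gene (2 of 23, against 3). The Wnt receptor gene fz2 had a signal of 93.5 (14.4 in replicate 1 and 74.4 in replicate 2). In the TGF-beta list dally, a glypican gene, had 88.9 (14.4 in replicate 1 and 73.7 in replicate 2). Among the 8 Hox genes the peak at Ubx was held by replicate 1 alone (46.6 in replicate 1 and 33.3 in replicate 2). The other single genes of a list were S for EGFR and Ras signalling, Rheb for insulin and TOR signalling, lola for architectural proteins, Mef2 for muscle, Dp for the cell cycle and His3.3B for histones. The chromatin list had 2 of 40, Su(z)12 and ph-d, both Polycomb group genes. No larger-list-only peak lay at 230 chemoreceptor and odorant binding genes, 119 cuticle protein genes, 34 testis genes or 29 pan-neuronal genes, nor at the heat shock, Hippo, JAK/STAT and neuronal fate lists. Conservative peaks were also absent from the chemoreceptor, cuticle, testis and JAK/STAT lists. They lay at 2 pan-neuronal, 4 heat shock, 2 Hippo and 4 neuronal fate genes. At the share of 3.84% of all protein-coding genes, the short lists would hold few larger-list-only peaks or none.

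The stc gene itself had 2 larger-list-only peaks, and the nearest conservative summit was 44729 bp from the first of them. That peak spanned 15113173 to 15113522 on 2L with its summit 132 bp 5' of the TSS, in the window printed above with a GAGA element and the E box CAGGTG on the minus strand. Its signal was 92.7, with 14.1 in replicate 1 and 86.6 in replicate 2, and its IDR between the replicates was 0.713 in the authors' deposited table. The second spanned 15113975 to 15114324 with its summit 670 bp downstream of the TSS. It had a signal of 53.6, with 30.3 in replicate 1 and 30.6 in replicate 2. The labels name a transgenic insertion that targets stc, and its part in these peaks was not tested.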

How the data were processed

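Peak lists on dm6 were used as deposited, for 2 biological replicates. Per the labels, sonicated chromatin of 200 to 800 bp was used; aligner and caller were not given in the sources used here. Per the file headers none names a unit, and the deposited signal of a peak is the authors' value. The authors' deposited score encodes the IDR, and the deposited −log10 columns hold the q-value and the IDR. Genes came from Ensembl BDGP6.54, release 115, and sequence from RefSeq Release 6, whose chromosome lengths hold all peaks.

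Each summit was classed, in order, as promoter (250 bp from a TSS), UTR or coding exon, intron, another kind of exon, or intergenic. Shares were compared by Fisher's exact test (SciPy 1.17.1, Woolf intervals), within strata by the Mantel-Haenszel method with a normal approximation, and medians by permutation, all two-sided, with Benjamini-Hochberg adjustment within families of 7 classes, 6 chromosomes or 25 motifs. The BEAF-32 core is part of the DRE motif. Intervals cover counting error only. A replicate's signal at a peak is that of an overlapping peak in its ranked list. The steps were tested on simulated data.

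The peaks, the 29 gene lists and the motifs were chosen with earlier results of these data known. The text names the 15 strongest promoter, 8 intron, 5 intergenic and 6 tRNA peaks, up to 4 genes per list, and stc, except for items not reported here. Alternatives changed the TSS distance, the overlap rule, the threshold, the signal matching, the clustering and the replicate.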

Additional observations from a re-analysis of the deposited data

How the results depend on the processing

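Leaving out a replicate here means limiting both sets to peaks that the other replicate's thresholded list holds. Without replicate 1 or 2 in turn, the number of peaks was 576 and 203, and the odds ratios ran from 0.942 to 1.66 for promoters, 0.644 to 0.960 for introns, 0.755 to 1.03 for intergenic sequence, 0.509 to 0.689 for the X chromosome, 0.414 to 1.18 for head-to-head promoters and 0.346 to 1.60 for upstream summits. The difference in GC content ran from 1.98 to 12.9 points, that of the dip from 2.97 to 17.3 points, and the number of motifs called from 1 to 8. That of 5' UTRs was 2.24 without replicate 1 and 0.237 without replicate 2, and that of coding exons 0.620 without replicate 1 and 6.23 without replicate 2. An IDR of 0.005 or less in the larger list left 812 peaks. The odds ratios and GC differences at this IDR were not taken over those 812. They compared 1227 peaks of the larger list with 3165 conservative peaks, so they are not limited to the 1494. Within 5 strata of signal the odds ratios were 0.963 for head-to-head promoters and 0.876 for upstream summits, 2 motifs were called, and that of the GC box turned to 0.951. Within 5 strata of GC content, chosen after seeing the data, 0 motifs were called after adjustment and 3 at an unadjusted p under 0.05 by the Mantel-Haenszel test, and the odds ratio of the TATA box turned to 1.03, of the GC box to 0.881 and of the homeodomain core to 1.02. A TSS distance of 100 bp brought the intergenic odds ratio of 0.840 past the threshold, and 500 bp gave 1.08 for promoters and 0.855 for head-to-head promoters, both short of it. With 1 peak per run of summits within 5 kb it was 1.04 for promoters and 0.856 for introns. The cause of these changes was not tested. The other alternatives run kept the direction and the side of the threshold of the promoter, intron, intergenic, X chromosome, head-to-head and upstream shares and of the GC differences. The calls of coding exons, both UTR classes and chromosome 4 were lost under several alternatives, as given with those results. Over all other single classes, chromosomes and motifs than the headline shares, with those just named included, 185 values kept the side of the threshold. Of the rest, 37 lost the call in the same direction, 6 lost it and changed direction, and 2 gained one. Some of the 185 changed direction while short of the threshold. Without replicate 2 the odds ratio of other kinds of exon went from 0.762 to 2.07, and that of chromosome 2R from 1.12 to 0.831. No paired analysis was possible because there is 1 group. The depth of the libraries is unknown, and no control was analysed here.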

Other observations

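One word of 6 bases stood out at the summits. In a comparison added after the data were seen, each of 2080 words was sought within 50 bp of the larger-list-only summits and in a window of the same length 300 bp away, on a side drawn at random. The word ACAGTG, on either strand, stood at 112 summits (7.50%) and in 46 flanking windows (3.08%; exact McNemar test, two-sided, adjusted p = 1.44e-04). It was the 1 word more frequent at the summit past the threshold, while GCCAAA and GGAGCA were less frequent. With the opposite side as the flank, 7 words were more and 1 was less frequent, and ACAGTG stood in 3.01% of those windows (exact McNemar test, adjusted p = 7.94e-05), while GCCAAA and GGAGCA no longer passed (adjusted p = 0.512 and 0.768). In conservative peaks ACAGTG stood at 6.21% of summits and in 4.26% of flanks (exact McNemar test, adjusted p = 3.29e-04), where 424 words were more and 919 less frequent at the summit.

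A small set of the peaks had a very low signal. In 75 larger-list-only peaks the signal in the larger list was under 20, with a median of 7.55. In the pair of lists compared for the larger list, the same peaks had median signals of 38.1 and 38.03, and never under 30. Of the 75, 33 were in a replicate's thresholded list. The conservative list held 139 peaks of a signal under 20.

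The 45 larger-list-only peaks in coding exons had a median GC content of 56.4% at the summit and 43.6% in the flanks, and 37 of them had more than 50% at the summit.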
